A study of Mus musculus with 25 samples.

Results

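The proteasome genes on the array were every gene whose probe set carries a single symbol that starts with Psm. They numbered 46 of the 8252 genes with a single symbol, on 58 of 12488 probe sets, and each was read from the probe set that was brightest on average over 25 arrays. The tissue was the tibialis anterior, the muscle at the front of the shin. Mice were C57BL/6J females aged between 2 and 3 months. A muscle was injured either by stretching it while active (150 eccentric contractions in the living animal) or by touching it for 10 seconds with a steel probe of 6 mm chilled on dry ice. Injured muscles were taken after 6 hours, 1 day, 3 days or 7 days, and 3 uninjured muscles served as controls. There were 3 arrays per group, with 2 each for contraction after 1 day and for freeze after 7 days. All mice were of 1 strain and carried no named allele, and the labels leave unsaid whether 1 mouse gave several samples, so that p-values cover only the spread between these samples. The question for this gene group was how the standard proteasome and its immune form moved after each injury.

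The proteasome is the protease that degrades proteins tagged with ubiquitin. Its 20S core is a barrel of alpha rings (Psma genes), which gate the entry, around beta rings (Psmb genes), which hold the cutting sites, and a 19S regulatory particle of ATPases (Psmc) and non-ATPase subunits (Psmd) recognises, unfolds and feeds in the substrate. Interferons induce 3 alternative cutting subunits, Psmb8, Psmb9 and Psmb10, which take the places of Psmb5, Psmb6 and Psmb7 to form the immunoproteasome, and the PA28 activator Psme1 with Psme2; these favour peptides for display on MHC class I. In muscle the ubiquitin and proteasome system is known for breaking down fibre proteins during wasting.

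Of the 46 genes, 31 were constitutive subunits: the alpha ring, the standard beta ring, the base ATPases and the non-ATPase subunits. The immunoproteasome was represented by 4 genes, Psmb8, Psmb9, Psmb10 and Psme1. Psme2 is not measured here, because the 2 probe sets that carry it carry a second symbol too. The rest were the other activators Psme3 and Psme4, the assembly factors Psmd5, Psmd9, Psmd10, Psmg1, Psmg2, Psmg3 and Psmg4, and Psmc3ip and Psme3ip1, which are members by name only. A filter on dim signals left 44 for testing. Psmd2, a large scaffold subunit of the regulatory particle, stayed out with signals of 4.0 to 37.5 over the 25 arrays, and Psmc3ip with 3.3 to 15.3. The chosen probe sets of Psma3, Psmb4, Psmb5, Psmb7, Psmc3 and Psmd12 are of kinds that may also bind related sequences.

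Signals are array intensities that the authors had scaled, with trimmed means between 150.09 and 150.13 on all arrays. Pairs of arrays of 1 group correlated at 0.939 to 0.976, with 1 exception. Sample 436, labelled freeze at 3 days, correlated at 0.803 to 0.804 with the other 2 samples of its group and at 0.947 to 0.952 with the controls. Its summed signal of 13 macrophage markers was 395, against 463 to 713 in controls and 22507 and 23487 in samples 450 and 468 of its group. Results that use it are therefore given with all 25 arrays and without it. Changes are differences of log2(signal + 13) ± SE from limma, which understate the change of dim genes, and a gene was called at a Benjamini-Hochberg adjusted p under 0.05 over all 9506 probe sets tested. The 8 comparisons with control share the same 3 control arrays. In whole muscle, fewer cells of a type and less RNA per cell cannot be told apart.

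Promoter windows are shown for the 4 immunoproteasome genes, all of which were higher at 3 days after freezing when sample 436 was left out, and for the standard subunits Psmb6 and Psmb5, for comparison of the 2 classes. They are RefSeq sequences of build GRCm38.p6, from 250 bases before to 50 bases after the start of the gene, 5′ to 3′ on the gene's strand. Capitals mark matches on either strand to 3 motifs: TGACNNNGC, the core of the antioxidant element bound by NRF1 and NRF2; the interferon-stimulated element, written as GAAA, any 2 bases, GAAA; and TTCNNNGAA, the interferon gamma activated site. Psmb8 lies at chr17:34197945-34198244 (plus strand), Psmb9 at chr17:34187281-34187580 (minus), Psmb10 at chr8:105938343-105938642 (minus), Psme1 at chr14:55578244-55578543 (plus), Psmb6 at chr11:70525107-70525406 (plus) and Psmb5 at chr14:54617946-54618245 (minus).
Psmb8: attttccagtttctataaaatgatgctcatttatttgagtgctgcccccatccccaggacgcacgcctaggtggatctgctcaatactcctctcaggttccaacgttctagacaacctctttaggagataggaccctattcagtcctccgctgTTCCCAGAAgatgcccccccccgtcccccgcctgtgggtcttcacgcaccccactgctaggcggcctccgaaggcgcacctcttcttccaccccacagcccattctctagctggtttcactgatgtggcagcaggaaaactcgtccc
Psmb9: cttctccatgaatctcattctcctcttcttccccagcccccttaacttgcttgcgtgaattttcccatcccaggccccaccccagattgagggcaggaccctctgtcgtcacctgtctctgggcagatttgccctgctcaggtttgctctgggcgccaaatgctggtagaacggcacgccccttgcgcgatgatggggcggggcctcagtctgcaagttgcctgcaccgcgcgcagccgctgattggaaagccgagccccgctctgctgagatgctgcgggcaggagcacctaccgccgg
Psmb10: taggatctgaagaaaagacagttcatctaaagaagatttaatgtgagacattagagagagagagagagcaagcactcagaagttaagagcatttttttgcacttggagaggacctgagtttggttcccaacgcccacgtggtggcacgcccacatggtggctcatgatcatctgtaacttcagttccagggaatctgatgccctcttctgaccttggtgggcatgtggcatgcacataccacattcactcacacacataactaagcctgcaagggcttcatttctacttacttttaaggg
Psme1: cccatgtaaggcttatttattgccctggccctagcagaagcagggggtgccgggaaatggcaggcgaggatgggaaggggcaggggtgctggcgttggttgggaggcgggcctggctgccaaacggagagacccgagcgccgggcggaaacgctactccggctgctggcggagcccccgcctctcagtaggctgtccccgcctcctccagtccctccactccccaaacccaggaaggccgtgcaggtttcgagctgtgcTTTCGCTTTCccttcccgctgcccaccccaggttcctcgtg
Psmb6: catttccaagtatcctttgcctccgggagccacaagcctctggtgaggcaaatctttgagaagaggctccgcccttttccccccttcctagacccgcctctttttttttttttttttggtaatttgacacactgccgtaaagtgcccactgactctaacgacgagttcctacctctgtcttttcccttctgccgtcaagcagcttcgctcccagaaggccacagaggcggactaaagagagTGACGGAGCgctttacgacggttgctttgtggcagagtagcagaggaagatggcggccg
Psmb5: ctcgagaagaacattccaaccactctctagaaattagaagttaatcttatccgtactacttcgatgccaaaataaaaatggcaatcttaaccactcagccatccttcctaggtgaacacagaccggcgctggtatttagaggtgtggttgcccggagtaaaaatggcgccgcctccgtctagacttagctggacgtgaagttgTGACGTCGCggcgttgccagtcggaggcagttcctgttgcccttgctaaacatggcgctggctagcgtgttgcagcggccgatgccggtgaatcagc
The Psmb8 window held the gamma activated site from base 154, and the Psme1 window the interferon-stimulated element from base 260. The Psmb9 and Psmb10 windows held none of the 3 motifs. The Psmb6 and Psmb5 windows held the antioxidant core from bases 242 and 204.

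Promoters were found for 39 members, some with more than 1 start. The antioxidant core stood in the windows of 4 of 25 constitutive genes (Psmb5, Psmb6, Psmd12 and Psmc6), 1 of 6 assembly factors (Psmd9), the activator Psme4 and 0 of 4 immunoproteasome genes, and in 12.4% of all 32851 windows. The interferon-stimulated element stood in 1 of 4 immunoproteasome genes, 2 of 25 constitutive genes, Psmd4 and Psmb3, and 2 of 6 assembly factors, Psmd9 and Psmg4, against 3.44% of all windows. The gamma activated site stood in 1 of 4 immunoproteasome genes, 1 of 25 constitutive genes, Psmd2, and 1 of 6 assembly factors, Psmg1, against 8.3% of all windows. None of the 3 motifs overlapped another in the windows printed. A match is a description of letters, and a window without one says nothing about the factor.

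Psmb8, the alternative form of the chymotrypsin-like subunit, gave signals of 156.7, 100.3 and 45.6 in the controls. After freezing it gave 131, 104.8 and 176.4 at 6 hours, 254.2, 293.1 and 266 at 1 day, 51.7 (sample 436), 791.9 and 786.6 at 3 days, and 289.1 and 223.3 at 7 days. All arrays of freeze at 1 day and 7 days, and both 3-day arrays other than sample 436, lay above every control. With all arrays it was higher by 1.74 ± 0.60 at 3 days (adjusted p = 0.0475), and 1.45 at 1 day (adjusted p = 0.106) and 1.36 at 7 days (adjusted p = 0.218) were not called. That call was lost when any 1 array other than sample 436 was left out. Without sample 436 Psmb8 was called at all 3 times, at 1.45 ± 0.28 (adjusted p = 0.00049), 2.95 ± 0.32 (adjusted p = 9.61e-08) and 1.36 ± 0.32 (adjusted p = 0.00374), the last lost without freeze sample 440 as well.

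Psmb9, the alternative form of the caspase-like subunit, was dim in the controls at 12.7, 26.9 and 65.1. Freeze gave 16.3, 8.1 and 17.9 at 6 hours, 75.7, 88.1 and 55.7 at 1 day, 7 (sample 436), 380.6 and 314 at 3 days, and 107.2 and 113.4 at 7 days. The 2 other 3-day arrays and both 7-day arrays lay above all controls, while the 1-day arrays overlapped control 3. With all arrays no time was called, with 1.67 at 3 days (adjusted p = 0.108). Without sample 436 it was higher by 3.06 ± 0.46 at 3 days (adjusted p = 9.49e-06), an 8.32-fold difference, and by 1.52 ± 0.46 at 7 days (adjusted p = 0.0224), which was lost without control 1, freeze sample 440 or freeze sample 454.

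Psmb10, the alternative form of the trypsin-like subunit, gave 237.9, 194.3 and 165.5 in the controls. At 3 days after freezing it gave 228.2 (sample 436), 688.1 and 625.3, while the 6-hour, 1-day and 7-day arrays together spanned 171.3 to 276.9. The 2 other 3-day arrays stood far above the controls, and both 7-day arrays (244.1 and 276.9) just above the highest. The 3-day difference was 1.18 ± 0.33 with all arrays (adjusted p = 0.022) and 1.67 ± 0.27 without sample 436 (adjusted p = 2.58e-05). Psme1, a subunit of the PA28 ring that caps the core and eases peptide release, gave 304.8, 300.7 and 178.6 in controls and 272 (sample 436), 550.1 and 577.1 at 3 days after freezing. Its difference was 0.77 ± 0.23 with all arrays (adjusted p = 0.0296) and 1.11 ± 0.19 without sample 436 (adjusted p = 6.64e-05). Without sample 436 all 4 immunoproteasome genes thus rose at 3 days, and the 4 calls were kept when any 1 of the other 24 arrays was left out as well.

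**Figure D1:**
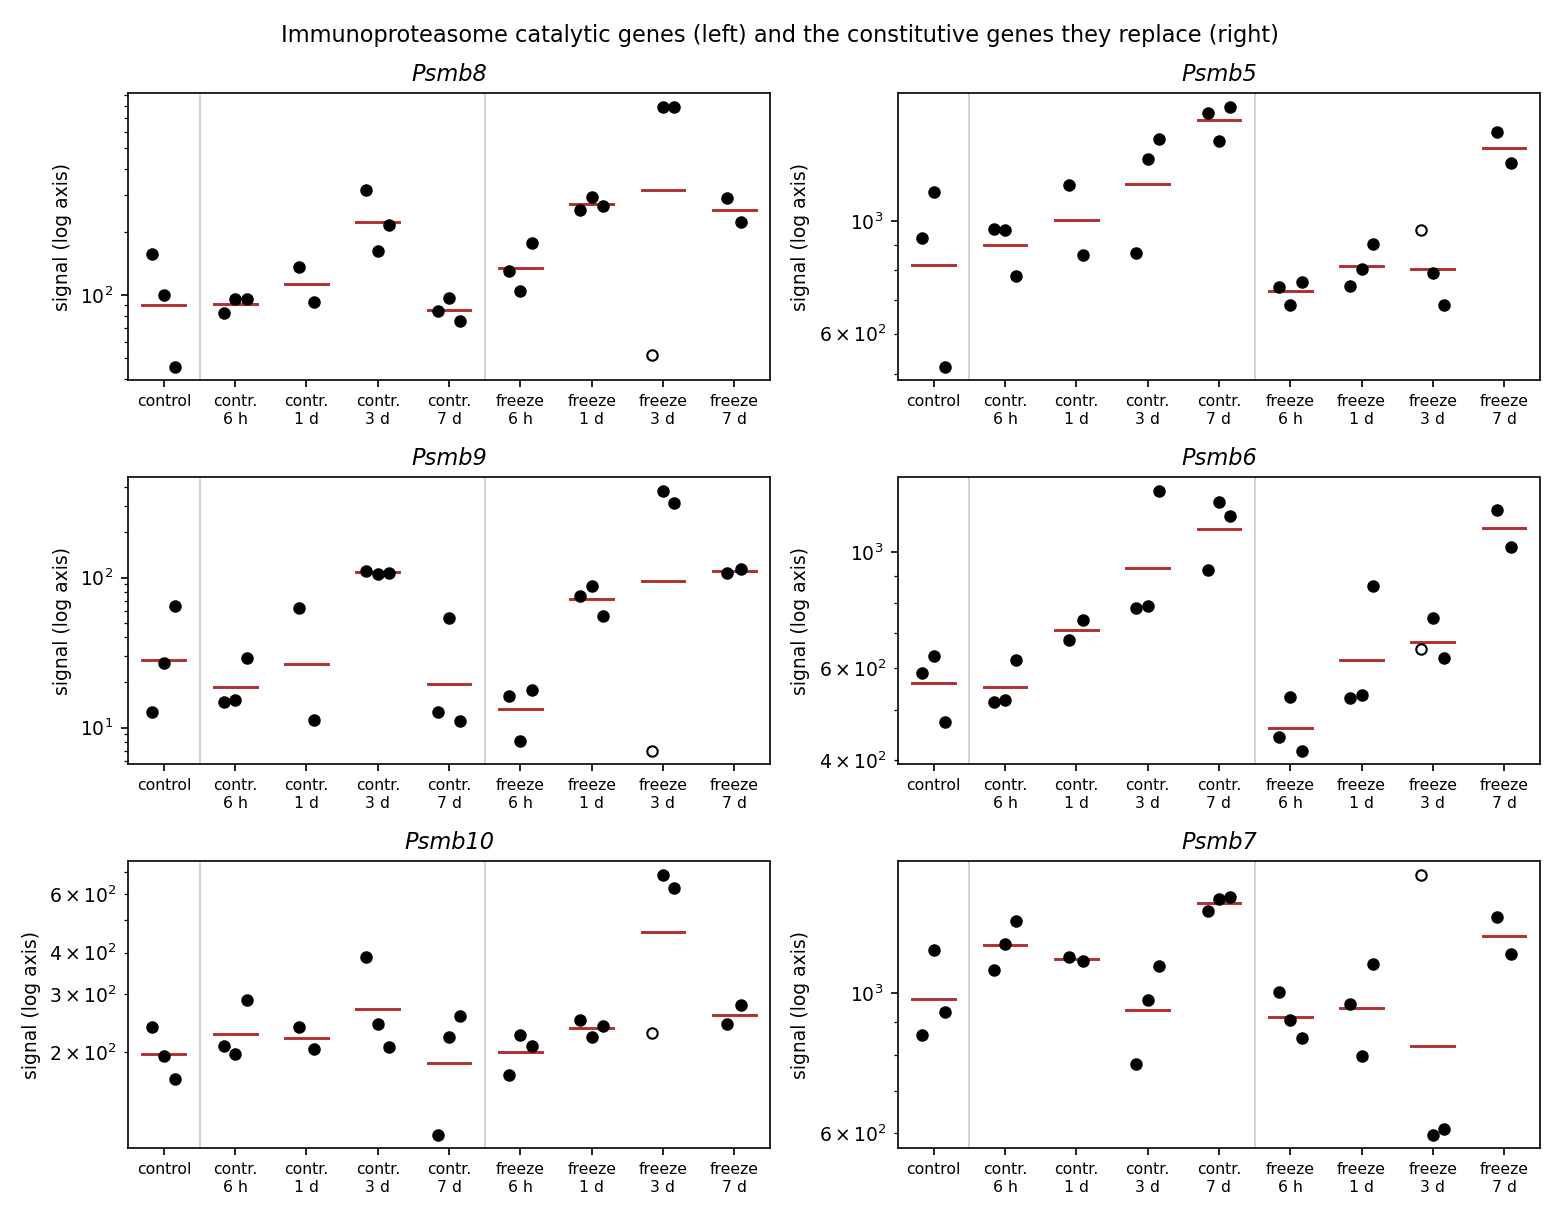
Signals on each array (log axis) for Psmb8, Psmb9 and Psmb10 on the left and the standard subunits they replace, Psmb5, Psmb6 and Psmb7, on the right. Points are arrays, red lines geometric means of a group, and the open circle is sample 436, which lies apart from the other 2 freeze arrays at 3 days in all 3 panels on the left (Psmb8 51.7 against 791.9 and 786.6).

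After contraction the immunoproteasome genes moved at 3 days and less broadly. Psmb8 gave 317.6, 162.1 and 216.6 at that time and Psmb9 111.4, 105.2 and 107.9, all above the controls. With all arrays their differences of 1.19 (adjusted p = 0.208) and 1.49 (adjusted p = 0.194) were not called, and without sample 436, which widens the spread that all groups share, they were 1.19 ± 0.28 (adjusted p = 0.00352) and 1.49 ± 0.41 (adjusted p = 0.0102). The Psmb9 call was lost when control 1 was also left out. Psmb10 (387.9, 243.4 and 207.2) and Psme1 (221.9, 209.3 and 249.3) overlapped the controls and were called in neither fit. At 7 days after contraction all 4 overlapped the controls, with Psmb8 at 83.7, 97 and 75.3. At 6 hours and 1 day none was called with or without sample 436, and their changes lay between -0.43 (Psmb9 at 6 hours) and 0.27 (Psmb8 at 1 day).

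The standard cutting subunits had another course. Psmb6, the standard caspase-like subunit, gave 588.9, 634.4 and 472.7 in the controls. It gave 926.9, 1247.8 and 1177.1 at 7 days after contraction, and 1208.4 and 1023.3 at 7 days after freezing. Every 7-day array lay above every control. The difference was 0.97 ± 0.22 for contraction (adjusted p = 0.0445) and 0.97 ± 0.24 for freeze (adjusted p = 0.0252), and 0.72 ± 0.22 at 3 days after contraction (adjusted p = 0.0452), where the arrays read 781.3, 788.7 and 1314.5. At 3 days after freezing Psmb6 read 652.5 (sample 436), 750 and 628.5, overlapping the controls.

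Psmb5, the standard chymotrypsin-like subunit, gave 928, 1145.1 and 516 in the controls, 1635.3, 1442 and 1686.8 at 7 days after contraction, and 1499.1 and 1302.3 at 7 days after freezing. All 7-day arrays were above the controls. The differences of 0.94 (adjusted p = 0.0953) and 0.76 (adjusted p = 0.0963) were called only without sample 436, at adjusted p = 0.02 and 0.035, and a second, dimmer probe set of Psmb5 showed -0.03 and -0.23. Psmb7, the standard trypsin-like subunit, gave 858.5, 1173.5 and 933.5 in controls and 1544.2 (sample 436), 596.7 and 610.4 at 3 days after freezing. Those last 2 arrays lay below every control and sample 436 above. The change was -0.24 with all arrays (adjusted p = 0.525) and -0.69 ± 0.18 without sample 436 (adjusted p = 0.00277).

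Within each array, the change of Psmb8 minus that of Psmb5 was 3.00 and 3.20 in freeze samples 450 and 468 at 3 days and -0.91 in sample 436. For Psmb9 minus Psmb6 these were 2.78, 2.76 and -1.32, and for Psmb10 minus Psmb7 2.44, 2.27 and -0.45. At 7 days after contraction all 9 such values were negative, from -1.89 (Psmb9 minus Psmb6) to -0.17 (Psmb10 minus Psmb7). Single controls spread from -0.35 to 0.53 for Psmb8 minus Psmb5, -0.81 to 1.10 for Psmb9 minus Psmb6 and -0.28 to 0.44 for Psmb10 minus Psmb7. Samples 450 and 468 lay above the controls in each pair. At 7 days after contraction only Psmb8 minus Psmb5 lay wholly below them, as the other pairs reached -0.50 and -0.17. That difference came from the chosen probe set of Psmb5, at 0.94, while Psmb8 changed by -0.09. The second, dimmer Psmb5 probe set read -0.03 there, so the result depends on the probe set. At 1 day after freezing the values were positive in each pair, from 0.07 (Psmb9 minus Psmb6) to 1.58 (Psmb8 minus Psmb5). Only Psmb8 minus Psmb5, at 1.28 or more, lay wholly above the controls there, and the other pairs overlapped them.

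Over whole classes, the 4 immunoproteasome genes had a median change against control after freezing of 0.00 at 6 hours, 0.62 at 1 day, 1.43 at 3 days (2.31 without sample 436) and 0.87 at 7 days. After contraction the medians were -0.12, 0.07, 0.81 and -0.08. The 30 constitutive subunits tested had medians of -0.13, 0.21, 0.17 (0.11 without sample 436) and 0.36 after freezing and of 0.06, 0.23, 0.42 and 0.44 after contraction, where the median of all probe sets tested lay between -0.12 and -0.03 in these comparisons. Positive changes were found for 18, 25, 27 and 28 of the 30 at the 4 times after contraction and for 6, 23, 21 and 25 after freezing. Of all probe sets tested 41.1%, 46.8%, 45.9% and 43.7% were positive at the 4 times after contraction. After freezing their medians were -0.039, -0.071, -0.087 and -0.065, so more of them were negative than positive at each time. Subunits of 1 array are not independent: single control arrays had from 7 to 25 of the 30 above the control mean. The immunoproteasome median lay above the constitutive one at all 4 times after freezing and at 3 days after contraction, and below it at the other 3 times after contraction.

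**Figure D2:**
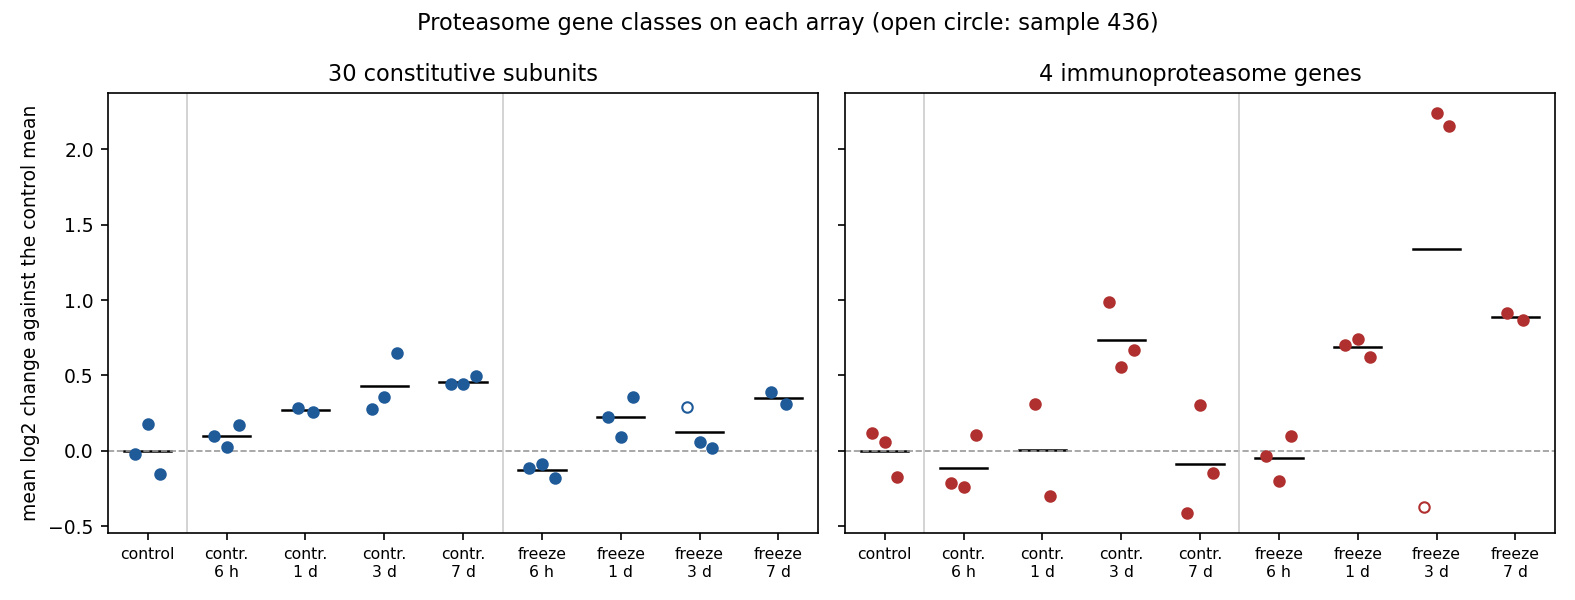
Mean log2 change against the control mean over 30 constitutive subunits (left) and 4 immunoproteasome genes (right) on each of 25 arrays, with bars at group means and sample 436 as an open circle. The 2 other freeze arrays at 3 days reach 2.24 and 2.15 for the immunoproteasome and 0.06 and 0.02 for the constitutive subunits.

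Array by array, the immunoproteasome mean minus the constitutive mean was -0.12 to 0.14 in the controls. It was 2.18 and 2.13 in freeze samples 450 and 468 at 3 days and -0.67 in sample 436. Freeze at 1 day gave 0.27 to 0.65 and freeze at 7 days 0.52 and 0.56, all above the controls, whereas contraction at 7 days gave -0.85, -0.14 and -0.65, all below them. Contraction at 3 days spread from 0.02 (sample 467) to 0.71 (sample 435), and overlapped the controls.

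Member by member, 3 days after contraction was the time with the most calls with all 25 arrays, 8 higher and 0 lower of 44, where 5.67% of all probe sets were called higher and 2.58% lower. These were Psmd10 at 1.34 ± 0.34 (adjusted p = 0.0192), Psmd4 at 1.16 ± 0.25 (adjusted p = 0.008), Psmd8 at 1.04 ± 0.26 (adjusted p = 0.0172), Psmd5 at 0.97 ± 0.28 (adjusted p = 0.0382), and Psma4, Psmb3, Psmb6 and Psma7 at 0.69 to 0.73 (adjusted p from 0.0238 to 0.0452). The count rested on single arrays. It was 0 without contraction sample 467, 3 without contraction sample 435, 3 without control 1, 1 without control 3 and 16 without sample 436. In that last fit 15 were higher and 1, Psme4, lower, against 13.1% and 9.69% of all probe sets, and the added calls included the alpha subunits Psma2, Psma3 and Psma5, the ATPase Psmc1 and the lid subunit Psmd13.

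In the alpha ring 2 of 7 genes, Psma4 and Psma7, were called at 3 days after contraction with all arrays, and the ring's median change was 0.63. Psma4 gave 678.2, 871.4 and 495.1 in the controls and 1001.2, 1122.7 and 1218.1 at that time. Psma7 gave 562.9, 577.8 and 331.4 against 654.7, 783.5 and 911.9. Both sets of arrays were apart, and Psma6 was the alpha gene with the smallest change, at 0.09. Psmb3, a core beta subunit without a cutting site, gave 881.7, 1261.4 and 705.7 in the controls and 1426.6, 1446.6 and 1746.2 after contraction, also apart. The 6 base ATPases, which form the unfolding ring, had changes of 0.14 (Psmc5) to 0.52 (Psmc1) and no call with all arrays.

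Psmd8 and Psmd4 led the non-ATPase subunits. Psmd8, a lid subunit, gave 289.7, 353.8 and 222.1 in the controls. After contraction it gave 404.7, 364.2 and 424.2 at 6 hours, 568.9 and 505.6 at 1 day, 424.9, 586.8 and 856.8 at 3 days and 507.4, 409.2 and 591.4 at 7 days, and all 11 arrays lay above all controls. After freezing it gave 329.3, 364.1 and 341.4 at 6 hours, 597.9, 574.8 and 1084.1 at 1 day, 299.2 (sample 436), 468.3 and 440.1 at 3 days and 567.6 and 591.8 at 7 days.

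The rise of Psmd8 at 1 day after freezing, 1.30 ± 0.26 (adjusted p = 0.0022), was called whichever array was left out, with values from 1.01 to 1.47. Its rise at 7 days after freezing, 1.00 ± 0.29 (adjusted p = 0.0448), kept its call in 10 of 25 such fits. The rise at 3 days after contraction was lost without control 3 or contraction sample 467.

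Psmd4, a receptor for ubiquitin chains, gave 744, 845.3 and 379.5 in controls, 985.6, 789.9 and 993.5 at 6 hours after contraction, 1160.1 and 1105 at 1 day, 1171.2, 1265.5 and 1846.6 at 3 days and 1052.5, 1009.2 and 1482.8 at 7 days. From 1 day on these lay above the controls, and the call at 3 days was lost only when contraction sample 467 was left out. After freezing Psmd4 read 1201.3 and 1081.5 at 7 days, a change of 0.86 (adjusted p = 0.068) that was called without sample 436 (adjusted p = 0.0222). Psmd6, another lid subunit, went the other way. It gave 1316.4, 1440 and 1000.7 in the controls and 1350.9 (sample 436), 712.6 and 701.2 at 3 days after freezing, a change of -0.49 ± 0.24 with all arrays (adjusted p = 0.142) and -0.80 ± 0.20 without sample 436 (adjusted p = 0.00242).

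**Figure D3:**
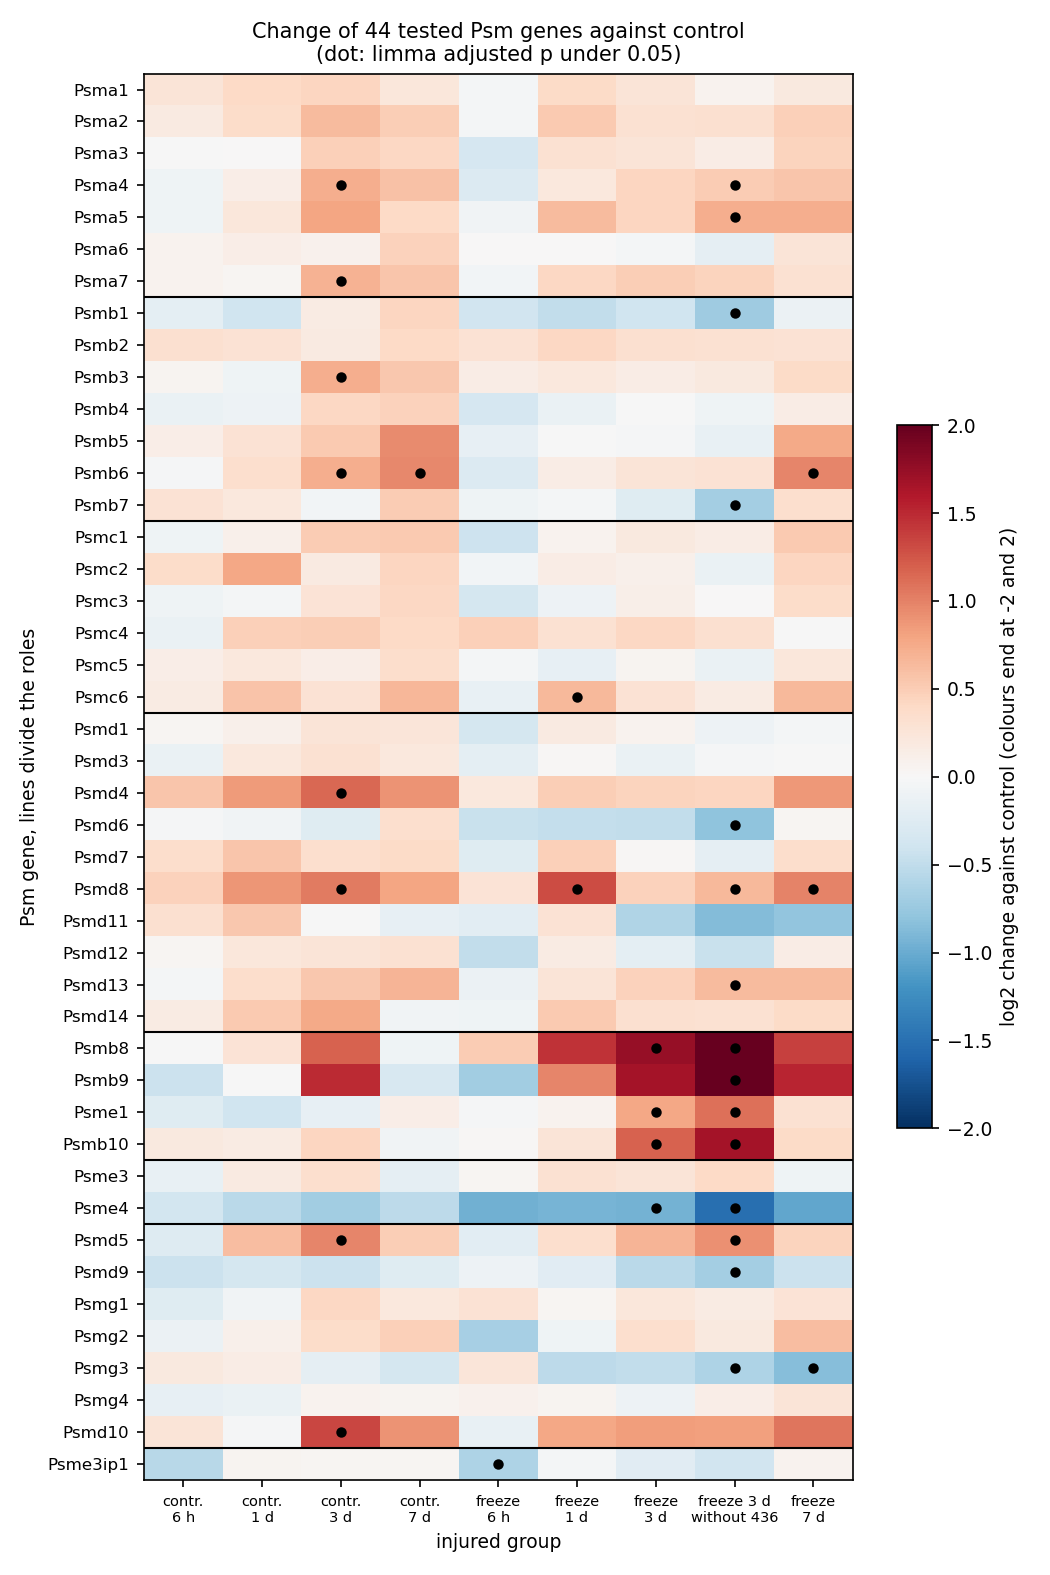
Log2 change against control of the 44 tested genes (rows, divided by role) in each injured group (columns), with freeze at 3 days also shown without sample 436. Dots mark adjusted p under 0.05 in limma: 8 genes for contraction at 3 days, and for freeze at 3 days 4 genes with all arrays and 15 without sample 436.

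Among the assembly factors, which help to build the particle and leave it, Psmd10 (gankyrin) and Psmd5 rose at 3 days after contraction. Psmd10 was dim at 25.2, 53.6 and 11 in the controls and gave 82.4, 81.5 and 97.6, with no overlap. Psmd5 gave 191.4, 204.1 and 241.2 in the controls and 382.1, 410.6 and 494.2, also with no overlap. At 3 days after freezing Psmd5 gave 243.4 (sample 436), 401 and 418.5, all above the controls, and was called only without sample 436, at 0.91 ± 0.29 (adjusted p = 0.0123).

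Psmg3, a chaperone of alpha ring assembly, gave 330.6, 289.5 and 306.3 in the controls and 123.5 and 216.9 at 7 days after freezing. It was lower by 0.86 ± 0.23 on the log2 scale (change -0.86, adjusted p = 0.0333). Its second probe set read 0.33 there, so the 2 probe sets disagreed in sign. Psmd9, a chaperone of the base, gave 309.7, 235.2 and 165.1 in controls and 188.4 (sample 436), 146.8 and 129.4 at 3 days after freezing, and was called only without sample 436, at -0.69 ± 0.26 (adjusted p = 0.0357).

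Psme4 encodes PA200, an activator of the core that acts without ATP. It gave 582.6, 995.6 and 1262.4 in the controls, a wide spread. After freezing it gave 464.9, 432.1 and 476.1 at 6 hours, 433.4, 531 and 441.7 at 1 day, 1011.8 (sample 436), 279.8 and 343.4 at 3 days and 462.7 and 400.4 at 7 days. Every freeze array other than sample 436 lay below every control. With all arrays its changes at the 4 times were -0.96, -0.93, -0.95 and -1.05, and only the third was called (adjusted p = 0.0418, the others 0.0867, 0.051 and 0.0811). Without sample 436 all 4 were called, at -0.96 ± 0.19, -0.93 ± 0.19, -1.50 ± 0.22 and -1.05 ± 0.22 (adjusted p from 5.38e-06 to 0.00149).

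After contraction the changes of Psme4 were -0.37, -0.54, -0.70 and -0.52, and only the 3-day value was called, without sample 436 (adjusted p = 0.0108). Psme3, the nuclear PA28 gamma activator, read 168.3, 182.8 and 227.8 in the controls and its changes lay between -0.18 and 0.33 with no call in either fit. The 3 activator genes measured therefore parted after freezing, with Psme1 higher at 3 days, Psme4 lower and Psme3 not called.

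**Figure D4:**
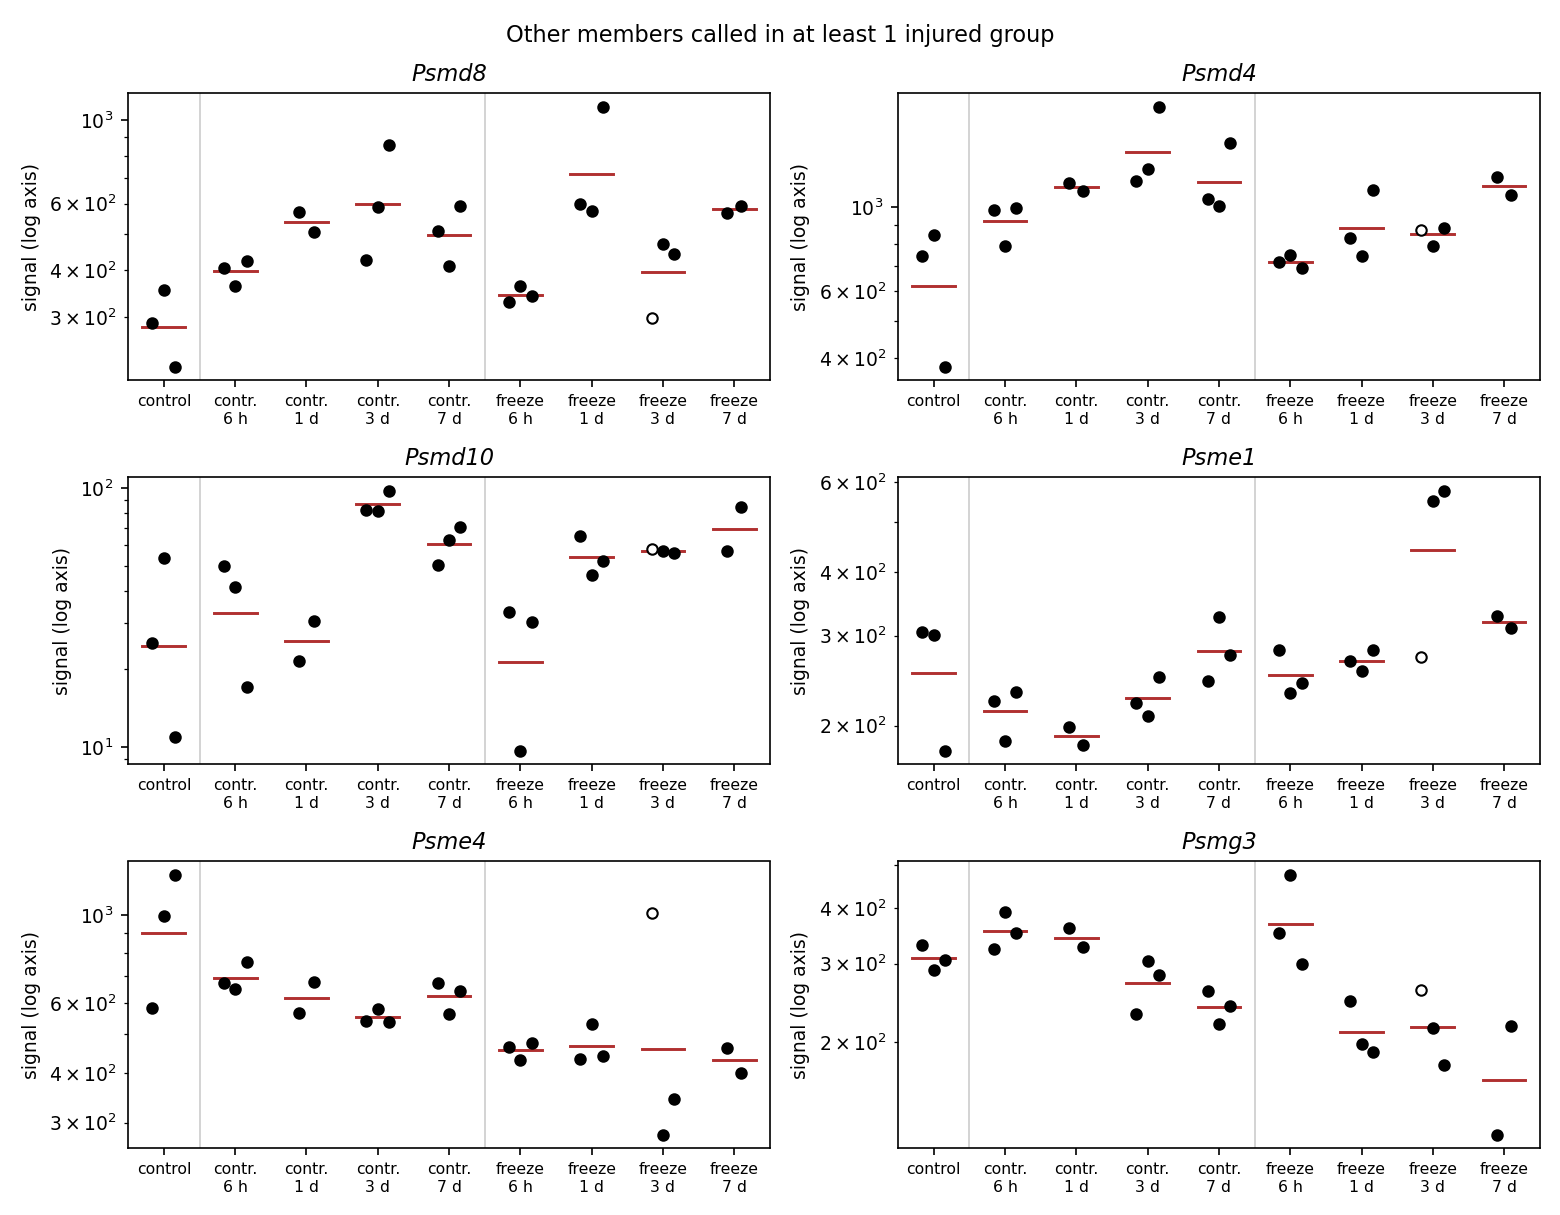
Signals on each array (log axis) for Psmd8, Psmd4, Psmd10, Psme1, Psme4 and Psmg3, with geometric means as red lines and sample 436 as an open circle. For Psme4 every freeze array other than sample 436 (1011.8) lies below the lowest control (582.6).

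At the earlier and later times few members were called. At 6 hours after contraction 0 of 44 were called in limma with all arrays (2 at an unadjusted p under 0.05), where 1.63% of all probe sets were called higher and 0.242% lower. The extremes were 0.55 for Psmd4, 0.47 for Psmd8, -0.55 for Psme3ip1 and -0.43 for Psmd9, and Psme3ip1 was called without sample 436 (adjusted p = 0.0485), where 0.831% of all probe sets were lower. At 1 day after contraction again 0 were called (5 unadjusted), against 1.63% higher and 0.158% lower, with 0.89 for Psmd8, 0.85 for Psmd4, -0.54 for Psme4 and -0.40 for Psmb1, and without sample 436 the lid subunit Psmd7 was called at 0.56 ± 0.16 (adjusted p = 0.041), where 3.25% of all probe sets were higher. At 7 days after contraction Psmb6 alone was called, 1 higher and 0 lower, against 0.473% and 0.0631% of all probe sets. That call was lost in 19 of 25 fits with 1 array left out, and without sample 436 the count was 5 higher (Psmb5, Psmb6, Psmc6, Psmd4 and Psmd13), against 2.24% of all probe sets. With a further array left out the count ran from 0 without control 3 to 12 without control 2.

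At 6 hours after freezing 0 were higher and 1, Psme3ip1, was lower, against 3.33% and 1.51% of all probe sets. Psme3ip1, an interactor of Psme3 and no subunit, gave 163.8, 206 and 185.5 in the controls and 108.6, 115.9 and 123.5 there, all below, a change of -0.61 ± 0.17 (adjusted p = 0.0389) that was lost without any 1 of 9 arrays, among them controls 2 and 3 and each freeze array at that time. Without control 1 or without sample 436 the count was 2, and in the latter fit, where 4.98% of all probe sets were lower, the second gene was Psme4. At 1 day after freezing 2 were higher and 0 lower, against 9.15% and 5.06%. They were Psmd8 and the ATPase Psmc6, which gave 2565.2, 1919.5 and 2183.3 against 1522.9, 1516.1 and 1209.6 in the controls, with no overlap, at 0.64 ± 0.20 (adjusted p = 0.0333). The count was 1 without control 3, freeze sample 422 or freeze sample 464, and without sample 436 it was 6 higher and 3 lower, against 14.8% and 12% of all probe sets.

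At 3 days after freezing 3 members were higher with all arrays (Psmb8, Psmb10 and Psme1) and 1 lower (Psme4), against 9.68% and 8.18% of all probe sets. All 4 overlapped the controls through sample 436. The count fell to 0 without control 3, without freeze sample 450 or without freeze sample 468, was 2 without freeze sample 418 of 6 hours or either freeze array of 7 days, and rose to 15 without sample 436. Those 15 were 9 higher and 6 lower, against 21.6% and 20.8% of all probe sets, so the share of members called was not above that of the array as a whole. Of the 30 constitutive subunits 4 were higher (Psma5 at 0.72, Psmd8 at 0.66, Psmd13 at 0.63 and Psma4 at 0.50) and 3 lower (Psmd6 at -0.80, Psmb1 at -0.70 and Psmb7 at -0.69). With all arrays a second bright probe set of Psmb1 went the other way there, at 0.29 against -0.40. The class thus held calls in both directions, while the immunoproteasome genes were higher in 4 of 4.

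At 7 days after freezing 2 members were higher (Psmb6 and Psmd8) and 1 lower (Psmg3), against 3.65% and 1.64% of all probe sets. The count was 0 without control 3 or freeze sample 440, 1 without freeze sample 454 or control 1, 6 without control 2 and 14 without sample 436. Of those 14, 12 were higher and 2 (Psme4 and Psmg3) lower, against 11.7% and 7.83% of all probe sets, and 9 of the 12 were constitutive subunits: Psma4, Psma5, Psmb5, Psmb6, Psmc1, Psmc6, Psmd4, Psmd8 and Psmd13. These calls, those of the constitutive subunits included, were mostly lost when freeze sample 440 was left out as well. Leaving out an array of this group left 1, which was assumed to vary like the other groups.

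Freeze and contraction were compared directly at each time. With all 25 arrays 0 of 44 members were called at any of the 4 times in limma (4, 3, 11 and 4 at an unadjusted p under 0.05, and 1, 3, 18 and 4 with array weights). Of all probe sets in the fit without weights, 0.252% were called higher and 0.0526% lower in freeze at 6 hours, 0.715% and 0.736% at 1 day, 0.0421% and 0.347% at 3 days and 0.368% and 0% at 7 days. For the weighted fit that share was not taken. The largest differences outside the catalytic pairs and Psme1 were 0.62 (Psmc4) and -0.59 (Psme4) at 6 hours, 0.79 (Psmd10) and -0.68 (Psmg3) at 1 day, 0.14 (Psmb2) and -0.71 (Psmd4) at 3 days, and 0.46 (Psmd14) and -0.63 (Psmd11) at 7 days. Of the immunoproteasome genes Psme1 came nearest to a call, at 0.93 ± 0.23 at 3 days (adjusted p = 0.0892).

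Without sample 436 the 3-day difference between the injuries covered 10 members, 4 higher and 6 lower in freeze, against 8.85% and 8.1% of all probe sets. The 4 higher were the immunoproteasome genes: Psmb8 at 1.76 ± 0.32 (adjusted p = 0.000461), Psmb9 at 1.57 ± 0.46 (adjusted p = 0.0196), Psme1 at 1.27 ± 0.19 (adjusted p = 0.000104) and Psmb10 at 1.24 ± 0.27 (adjusted p = 0.0024). Psmb9 lost its call when contraction sample 449, freeze sample 450 or freeze sample 468 was left out as well, and the other 3 did not lose theirs with any further array left out. The 6 lower were Psmb1 at -0.87, Psme4 at -0.81, Psmd12 at -0.70, Psmb7 at -0.63, Psmd7 at -0.52 and Psmb4 at -0.50. Of the 30 constitutive subunits 2 had a positive difference at this time, with a median of -0.36, against -0.03 for all probe sets.

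At the other times the fit without sample 436 called 1 or 2 members between injuries. Of all probe sets it called 1.81% higher and 0.547% lower in freeze at 6 hours, 6.42% and 3.72% at 1 day and 5.64% and 1.63% at 7 days. At 7 days Psmb8 (1.45 ± 0.32, adjusted p = 0.00562) and Psmb9 (1.84 ± 0.46, adjusted p = 0.0147) were higher after freezing, and at 1 day Psmb8 (1.18 ± 0.32, adjusted p = 0.0185) was higher and Psmg3 (-0.68, adjusted p = 0.0458) lower. At 6 hours Psmd7 was lower (-0.58, adjusted p = 0.0253). The 7-day pair was lost without further arrays: Psmb9 without contraction sample 425 or 453 or either freeze array at 7 days, and Psmb8 without freeze sample 440.

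Between 3 and 7 days 0 of 44 members were called after either injury with all arrays (6 unadjusted after contraction and 3 after freezing). Of all probe sets 0.368% were higher and 0.473% lower at 7 than at 3 days after contraction, and 0.715% and 0.0947% after freezing. The extremes outside the catalytic pairs and Psme1 were 0.58 (Psmd6) and -0.82 (Psmd14) after contraction and 0.54 (Psmd8) and -0.42 (Psmc4) after freezing.

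Without sample 436 the calls of the 2 classes ran in opposite directions between these times, but the constitutive ones rested on single arrays. After freezing most constitutive calls were lost without freeze sample 468 as well, which left 1 array of freeze at 3 days. After contraction the 2 constitutive calls were lost without contraction sample 453 as well, while the 2 immunoproteasome calls were kept there. After freezing 6 members were higher at 7 than at 3 days (8.22% of all probe sets), all constitutive: Psmb7 at 1.02 ± 0.19 (adjusted p = 0.000605), Psmb5 at 0.91 ± 0.27 (adjusted p = 0.0221), Psmd6 at 0.83 ± 0.22 (adjusted p = 0.00934), Psmb1, Psmd12 and Psmd7. The 4 lower members (8.87% of all probe sets) were Psmb8 at -1.59 ± 0.35 (adjusted p = 0.00223), Psmb9 at -1.54 ± 0.50 (adjusted p = 0.036), Psmb10 at -1.29 ± 0.30 (adjusted p = 0.00339) and Psme1 at -0.80 ± 0.21 (adjusted p = 0.0106). The Psmb9 and Psme1 calls were each lost in 4 of 24 fits with a further array left out. After contraction Psmb8 (-1.27, adjusted p = 0.00359) and Psmb9 (-1.81, adjusted p = 0.0043) were lower and Psmb7 (0.56, adjusted p = 0.0181) and Psmd6 (0.58, adjusted p = 0.0333) higher at 7 days, where 7.88% and 5.26% of all probe sets were.

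Over the whole course, an F test for any change against control called 20 of 44 members with all arrays, where 26.2% of all probe sets were called. They included 14 of 30 constitutive subunits, led by Psmb6 (adjusted p = 0.00167), Psmc1 (adjusted p = 0.00261) and Psma4 (adjusted p = 0.00452), and 1 of 4 immunoproteasome genes, Psme1 (adjusted p = 0.029). Without sample 436 it called 32 members, with 22 constitutive subunits and all 4 immunoproteasome genes, against 49.3% of all probe sets. The F test for injury by time called 0 members in limma with all arrays (0 also at an unadjusted p under 0.05, and 2 with array weights), against 0.589% of all probe sets, and Psme1 alone without sample 436 (adjusted p = 0.0437), against 4.45%.

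The immunoproteasome genes were set beside a list of 24 genes of peptide loading and interferon signalling, 18 of which were tested. With all arrays 3 were higher at 3 days after freezing: Irf8 at 1.90 ± 0.55 (adjusted p = 0.0255), Pdia3, a chaperone of the loading complex, at 1.56 ± 0.49 (adjusted p = 0.0348), and Irf9, part of the interferon-stimulated factor, at 1.29 ± 0.43 (adjusted p = 0.0427). Tap1, a peptide transporter whose gene neighbours Psmb9, had 80 to 91.2 in controls and 47.6, 530.1 and 594.3 in the 3 arrays, a change of 1.47 that was not called (adjusted p = 0.0548). Pdia3 was also higher at 1 day (2.38 ± 0.49) and 7 days (2.08 ± 0.55) after freezing, and 0 list genes were lower in those comparisons. Of all probe sets 9.68% were higher and 8.18% lower at 3 days, 9.15% and 5.06% at 1 day and 3.65% and 1.64% at 7 days. Without sample 436 15 of 18 were higher and 0 lower at 3 days after freezing with a median of 1.92, where 21.6% of all probe sets were higher. In that fit 8 were higher and 1 lower at 1 day (14.8% and 12% of all probe sets), 8 higher at 7 days (11.7%) and 7 higher at 3 days after contraction (13.1%). Psmb8 was also called at each of these times in that fit.

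A second list held 44 genes that attach ubiquitin, deliver substrates or regulate the proteasome, with 30 on the array. At 3 days after freezing 3 were higher and 6 lower with all arrays, where 9.68% and 8.18% of all probe sets were, and 4 and 10 without sample 436, where 21.6% and 20.8% were. Nfe2l1, which encodes NRF1, the factor known to induce proteasome subunits, read 1734.5 to 1874.9 in controls and 738.9 to 1337.7 at that time, and was lower at -0.87 ± 0.20 (adjusted p = 0.0135). Nfe2l2, which encodes NRF2, was higher at 6 hours after freezing (1.42 ± 0.23, adjusted p = 0.000377) and 3 days after contraction (0.85 ± 0.23, adjusted p = 0.0286). Sem1, a small lid subunit whose symbol does not start with Psm, was higher at 0.72 ± 0.21 at 3 days after freezing (adjusted p = 0.0246), with 1034.6 to 1577.4 there and 581.5 to 916.1 in controls. The 5 lower besides Nfe2l1 were the ubiquitin-conjugating enzymes Ube2b, Ube2d3, Ube2g1 and Ube2h, and Ecpas, a proteasome adaptor, all of which overlapped the controls through sample 436.

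Of the cell types with listed markers, macrophages had their highest sums in the groups where the immunoproteasome genes were highest. The summed signal of 13 macrophage markers was 463 to 713 in controls, 6240 to 8807 at 1 day after freezing, 395 (sample 436), 22507 and 23487 at 3 days and 6437 to 6714 at 7 days. After contraction it was 657 to 1548 at 6 hours, 1192 to 1914 at 1 day, 8332 to 12060 at 3 days and 1520 to 2672 at 7 days. The groups with the highest immunoproteasome means were those with the highest macrophage sums, but not in the same order. Freeze at 7 days had a higher mean (0.89) than contraction at 3 days (0.74) and lower sums. Freeze at 6 hours had sums of 2566 to 4743, above the controls, and a mean of -0.045. The 12 muscle fibre markers summed to 128820 to 210847 in controls and as low as 34784 at 3 days after freezing, where sample 436 had 215984. The actin 3′ to 5′ probe ratio, a sign of RNA integrity, was 0.56 to 0.595 in controls, 1.01 to 1.31 at 1 day and 0.741 to 1.09 at 3 days after freezing, and 0.923 to 1.21 at 3 days after contraction. The part of these in the members' changes was not tested.

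**Figure D5:**
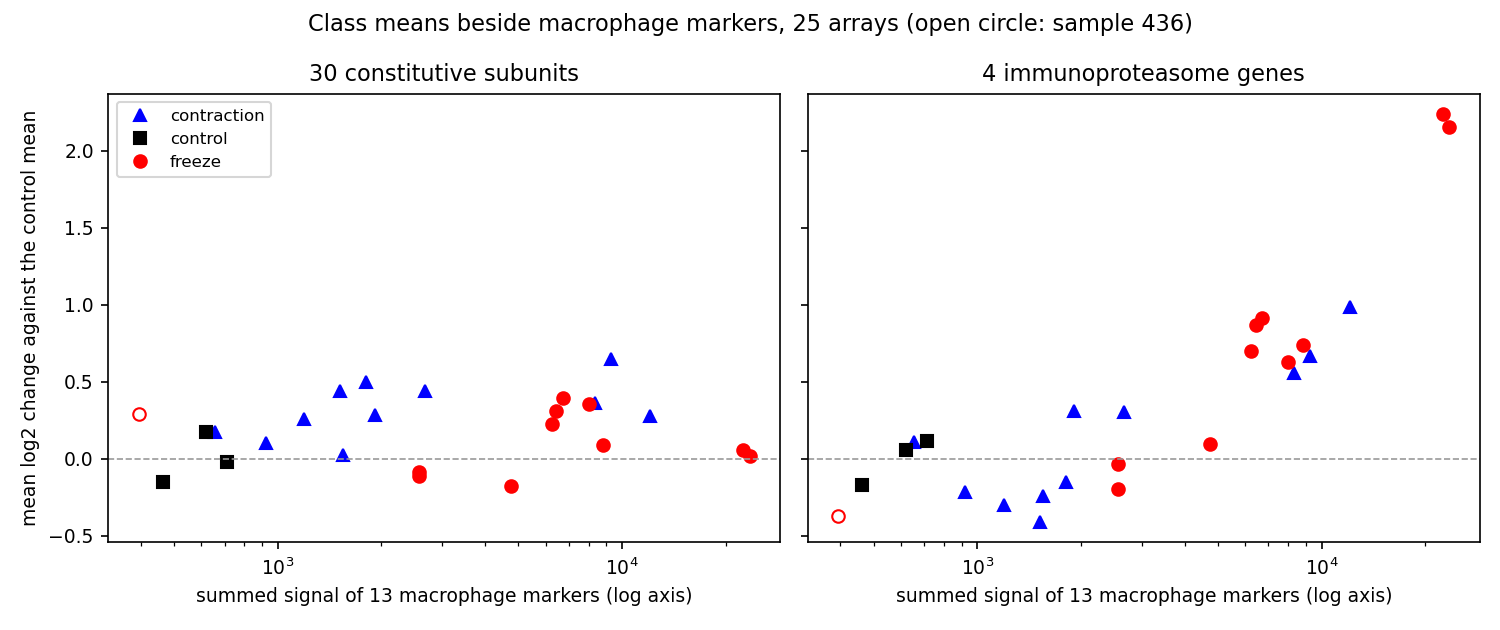
Mean log2 change of 30 constitutive subunits (left) and 4 immunoproteasome genes (right) against the summed signal of 13 macrophage markers (log axis), 1 point per array, with sample 436 as an open circle at 395. On the right the 2 highest arrays, freeze samples 450 and 468 at 2.24 and 2.15, also have the highest macrophage sums (22507 and 23487); on the left the same arrays stand at 0.06 and 0.02.

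The summed lymphocyte markers did not show such a pattern, though only 5 of their 9 genes were tested. Their sum over 9 genes was 704 to 744 in controls and 562 to 685 at 3 days after freezing, and Cd3e, Cd3g and Cd8a stayed at or under 20.2 in that group and did not pass the filter. Gzma did not pass it either, so the sum says little about cells marked by these genes. Neutrophil markers summed to 480 to 830 in controls and after freezing to 2760 to 4435 at 6 hours, when 0 immunoproteasome genes were called in either fit, to 1908 to 3370 at 1 day, when Psmb8 was called without sample 436, and to 399 to 650 at 3 days. The 6 fibroblast markers summed to 2648 to 4885 in controls, 5547 to 6538 at 3 days after contraction, 1565 to 13774 at 3 days and 20972 to 21311 at 7 days after freezing. At 3 days 0 of the 6 were called after either injury with all arrays, where 5.67% of all probe sets were higher after contraction and 9.68% after freezing. Without sample 436 4 were higher after contraction and 5 after freezing, against 13.1% and 21.6% of all probe sets. Their part, too, was not tested.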

How the data were processed

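RNA of mouse tibialis anterior was hybridised to Affymetrix U74 version 2 A arrays, 25 in 9 groups. The authors deposited 1 linear intensity per probe set, made with MAS5 per the submitters' processing notes. For the MAS5 version and settings, nothing is given in the sources used here. Symbols came from a table of platform annotation, brought up to date through a RefSeq gene table. Signals were taken to log2 after adding 13. A probe set was tested where 2 or more arrays had it above that array's 40th percentile (9506 probe sets), which limits what is said of dim genes. A single limma model (version 3.58.1, R 4.3.3) gave each group a mean (eBayes with a trend, 16 residual and 5.46 prior degrees of freedom) for 14 comparisons and 2 F tests, and p-values, two-sided, were adjusted by Benjamini-Hochberg over all probe sets tested. The method was tested on simulated data. The number of arrays, 2 or 3 per group, limits the precision.

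The members and lists were chosen with earlier results of these data known. Named with values were the immunoproteasome genes, Psmb5, Psmb6 and Psmb7, and in each comparison up to 4 other members with the largest rise and fall among those called, or 2 of each by size where none was; further names, among them Psmd2, Psmd6, Psmd9, Psma6, Psmb3 and Psme3, were chosen after their values were seen. Alternatives were other pseudocounts, scalings, filters and eBayes settings, array weights, a random block of adjacent sample numbers, the mean of a gene's probe sets, only the compared groups, a stricter threshold and leaving out each array. Leaving out a further array beside sample 436 was added after seeing the data.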

Additional observations from a re-analysis of the deposited data

How the results depend on the processing

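With array weights the counts of members called against control were 16 at 3 days and 3 at 7 days after contraction and 3, 8, 16 and 15 at the 4 times after freezing. Between injuries they were 1, 3, 18 and 4, between 3 and 7 days 5 after contraction and 17 after freezing, and in the F tests 36 for any change and 2 for injury by time. At an adjusted p under 0.01 they were 1 at 3 days and 0 at 7 days after contraction, 0, 1, 0 and 0 after freezing, and 5 for any change. Contraction at 3 days gave 5 with median centring and 5 with only the compared groups, and contraction at 7 days gave 0 under quantile normalization, median centring, no filter, no trend and only the compared groups. Freeze at 6 hours gave 0 under quantile normalization, no trend and only the compared groups. Freeze at 1 day gave 1 with median centring and 4 with only the compared groups, and freeze at 3 days 2 with no filter, 2 with no trend and 0 with only the compared groups. Freeze at 7 days gave 5 under quantile normalization. With only the compared groups 1 member was called between injuries at 1 day, 2 at 7 days and 2 between 3 and 7 days after contraction. The share of all probe sets called under these settings was not taken, so these counts cannot be set against the array as a whole. The causes of these shifts were not tested.

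With 1 array left out, counts ran from 0 to 16 for contraction at 3 days, 0 to 5 at 7 days, and for freeze from 0 to 2, 1 to 9, 0 to 15 and 0 to 14 at the 4 times. The F test for any change called 16 to 32. In the other comparisons the single fit with a call was that without sample 436: 1 for contraction at 6 hours and at 1 day, 1, 2, 10 and 2 between injuries, 4 and 10 between 3 and 7 days after contraction and freezing, and 1 for injury by time. Signs reversed in 2 comparisons that use freeze at 3 days. For freeze minus contraction at 3 days, leaving out 1 array gave -0.631 to 0.045 for Psmb7, -0.059 to 1.76 for Psmb8, -0.583 to 1.566 for Psmb9 and -0.806 to 0.097 for Psme4, and a pseudocount of 1 gave -0.145 for Psmb9. For 7 minus 3 days after freezing it gave -1.586 to 0.232 for Psmb8 and -1.541 to 0.608 for Psmb9, and a pseudocount of 1 gave 0.173 for Psmb9. In each case the end with the larger size is that without sample 436, and the reversals came without sample 450 or 468. Changes of single members that were called with all arrays or without sample 436 were read again in the alternative settings. Counted once per change and setting, 3041 readings kept the direction and side of the threshold. Of the rest 173 lost a call, 175 gained one and 13 reversed sign. The main fit used no pairing, because no 2 groups share sample numbers. Many contraction samples have a freeze sample of the same time with the adjacent number, such as 417 and 418 at 6 hours. The labels do not say that adjacent numbers mark a pair. Adjacent numbers taken as a random block correlated at -0.0937, and 21 members were called for any change in that fit, with the count in every other comparison and F test as without it. Where a group was left with 1 array, it was assumed to vary like the other groups.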

Other observations

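For several members the probe sets disagreed. Psmd11, a lid subunit, was read above from its brightest probe set, which gave 1501.3, 1247.3 and 4497.6 in the controls and was called at no time. Another Psmd11 probe set was called higher at 6 hours (1.13), 1 day (1.27) and 3 days (1.16) after contraction and at 1 day (0.91) after freezing. For Psmb1 the chosen probe set showed -0.40 at 1 day after contraction and -0.49 at 1 day after freezing, and another showed 0.38 and 0.43, with no call for either. The values do not say which probe set reads the transcript.

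Outside the members, Uchl1, a deubiquitinating enzyme, was higher at 7 days after both injuries, at 1.52 ± 0.29 after contraction (adjusted p = 0.0135) and 1.14 ± 0.32 after freezing (adjusted p = 0.0415) in limma with all arrays. It gave 75.5 to 127.1 in the controls, 309.5 to 342.7 after contraction and 246.3 to 254.3 after freezing. Ube2n, a conjugating enzyme that builds chains through lysine 63, was higher at 1 and 3 days after contraction and at 1, 3 and 7 days after freezing, with changes of 0.64 to 0.83.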
